A study of Mus musculus with 2 samples.

Results

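The 9 genes described here code for secreted ligands of the bone morphogenetic protein (BMP) pathway (Bmp2, Bmp4, Bmp7 and Gdf10), for its receptors (Bmpr1a, Bmpr1b and Bmpr2) and for secreted proteins that bind BMPs (Grem1 and Bmper). They were chosen by name as parts of 1 pathway, out of 32285 genes listed for each library. Earlier results of these data were known at that choice, so counts of members against all genes are descriptions. The 9 genes were followed across both fat depots and the cell clusters named by the authors. The stromal vascular fraction (SVF) of subcutaneous white (WAT) and interscapular brown (BAT) adipose tissue was taken from P0 pups of the C57/BL6J strain, with males and females pooled and no genetic change or treatment. WAT was digested for 35 min and BAT for 50 min, both cultures were grown in serum-containing medium to confluency in 4 days, and each gave 1 single-cell RNA sequencing library. Age and days of culture are those of the labels, and the study's methods and text give a day more for each. Depot, digestion time, culture and library therefore cannot be told apart, and no value below has a replicate.

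BMPs are dimeric ligands that bring together type I receptors, such as those made by Bmpr1a and Bmpr1b, and the type II receptor made by Bmpr2. The type II receptor phosphorylates the type I receptor, which phosphorylates SMAD proteins that enter the nucleus with SMAD4 and switch on targets such as the Id genes. In fat, BMP4 is known for committing stem cells to the white lineage and BMP7 for promoting brown adipogenesis, while secreted antagonists such as gremlin 1, made by Grem1, hold ligands away from receptors.

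The WAT library held 5261 captured cells and the BAT library 7009, and 4407 and 6137 passed the study's limits on genes, unique molecular identifiers (UMIs) and mitochondrial share. The BAT number is slightly below the one the study states for these limits. The authors' cluster names were used for 1999 precursor cells per depot, fewer than the study named, with 57368210 UMIs in WAT (median of 27204 per cell) and 57780702 in BAT (median of 26900). The libraries shared 9 cell barcodes. These cells fall into wAPC 1 to 4, wCAPs (committed adipocyte precursors), wFAPLs (fibro-adipogenic progenitor-like cells) and differentiating wFAPLs in WAT, and into bAPC 1 to 5, bCAPs and bFAPLs in BAT. The 6 precursor markers summed to between 4549 and 6985 CPM (UMIs of a gene per 1000000 UMIs) in the 13 clusters of at least 50 cells and to 2738 CPM in the 15 differentiating wFAPLs, where 1 of the 6 was at 0. The 6 adipocyte markers summed to at most 2.32 CPM in all 14 clusters. Levels are summed UMIs of a cluster's cells in CPM with exact 95% Poisson intervals, ratios carry conditional binomial intervals, and both cover counting error only. The sequencing reads the 3′ ends of transcripts, so levels were compared between cells and not between genes. The clusters were made from these same counts, and Bmp4 is among the genes by which the study describes the differentiating wFAPLs, so differences between clusters are descriptions.

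**Figure D1:**
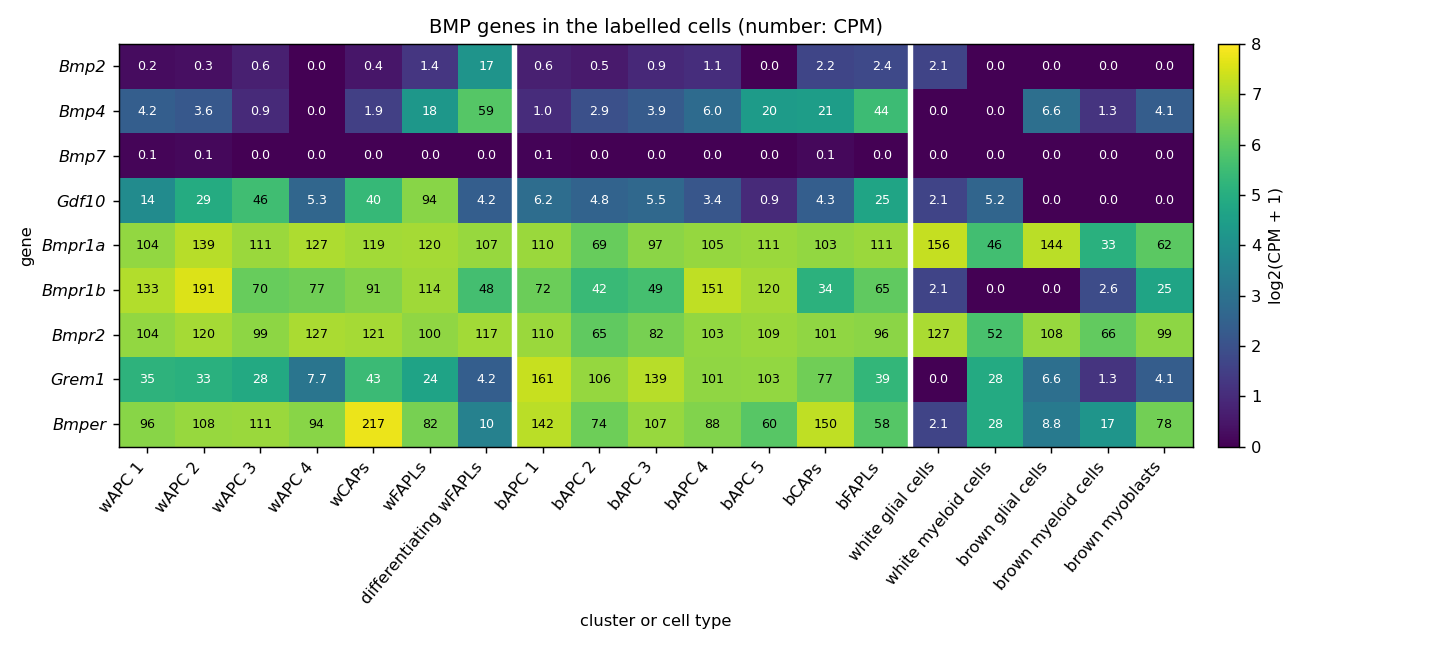
Heat map of the level of each of the 9 genes (rows) in the 14 precursor clusters and 5 other cell types (columns); each number is CPM over the labelled cells and the colour is log2(CPM + 1). Bmpr1a and Bmpr2 are similar across the clusters, and Grem1 is higher in the brown bAPC clusters than in any white cluster. Bmp2 and Bmp7 are near 0 in the 13 clusters of at least 50 cells, and Bmp2 is at 16.8 CPM in differentiating wFAPLs.

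Of the 9 genes, 7 reached 5 CPM in at least 1 depot. Brown precursor cells had more Bmp4 and Grem1 and less Gdf10 than white ones, each by more than 2-fold, while the 3 receptors and Bmper were lower in BAT by less than 2-fold. Of all 10606 genes at that level, 0.999% were higher and 1.16% lower by 2-fold or more in BAT, or 2.16% in either direction. The median log2 ratio of the 7 genes, BAT over WAT, was -0.24, against -0.04 over all genes. Limits on the sizes for Bmp4 and Gdf10 are given below.

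Promoters are shown for the ligands and binding proteins of at least 5 CPM, Bmp4, Gdf10, Grem1 and Bmper, since the ligands were lower and the binding proteins higher in committed than in fibro-adipogenic cells. Each sequence is the 250 bases before the RefSeq start on GRCm38.p6, 5′ to 3′ on the gene's strand. They lie at chr14:46390670-46390919 (minus strand, Bmp4), chr14:33923337-33923586 (plus, Gdf10), chr2:113758649-113758898 (minus, Grem1) and chr9:23222826-23223075 (plus, Bmper). Capitals mark matches on either strand of GGCGCC, a GC-rich SMAD element, of TATAAA, the TATA box, and of CCAAT, and none of these matches overlapped.
Bmp4: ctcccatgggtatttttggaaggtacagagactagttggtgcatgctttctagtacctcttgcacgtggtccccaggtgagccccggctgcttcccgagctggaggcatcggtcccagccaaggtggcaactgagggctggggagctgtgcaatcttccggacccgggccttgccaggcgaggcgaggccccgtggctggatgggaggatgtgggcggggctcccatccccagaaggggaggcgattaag
Gdf10: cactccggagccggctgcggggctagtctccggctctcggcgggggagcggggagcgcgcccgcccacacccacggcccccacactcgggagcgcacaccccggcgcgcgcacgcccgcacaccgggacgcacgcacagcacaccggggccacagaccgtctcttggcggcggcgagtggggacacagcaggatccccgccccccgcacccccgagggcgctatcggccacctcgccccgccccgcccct
Grem1: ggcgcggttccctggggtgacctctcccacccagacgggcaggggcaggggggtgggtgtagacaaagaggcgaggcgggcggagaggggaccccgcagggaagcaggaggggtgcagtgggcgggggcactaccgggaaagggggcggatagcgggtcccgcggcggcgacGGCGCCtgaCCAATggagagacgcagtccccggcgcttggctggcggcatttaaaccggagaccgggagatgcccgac
Bmper: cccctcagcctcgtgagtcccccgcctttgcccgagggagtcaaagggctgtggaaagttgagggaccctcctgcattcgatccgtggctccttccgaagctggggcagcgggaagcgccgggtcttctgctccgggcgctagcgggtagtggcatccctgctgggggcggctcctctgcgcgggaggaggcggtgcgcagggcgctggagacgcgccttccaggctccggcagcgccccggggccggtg
GGCGCC was found in 1 of the 4, starting 78 bases before the Grem1 start, and CCAAT stood in the same promoter at 69 bases. Among 32851 promoter windows of this length, 9.59% held GGCGCC, 12.4% TATAAA and 33.8% CCAAT. None of the 4 windows held TATAAA. Their GC content was between 63.2% (Bmp4) and 78.8% (Gdf10), above the median of 52.4% over all windows. A match is a description of letters and not a site of binding.

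Bmp4, on chromosome 14 (46383520 to 46390669, minus strand, GRCm38), codes for a ligand that signals through both type I receptors studied here. It was at 4.99 CPM in WAT (4.42 to 5.60) and 11.5 CPM in BAT (10.6 to 12.4). This is a log2 ratio of 1.20 (1.00 to 1.41), or 2.31-fold more in BAT. The interval starts at 2-fold, and the ratio was 1.01 in G1 cells. The Bmp4 shares of most white clusters could not be told from background, as given below, so this size is not firm. In WAT it was highest in the 15 cells named differentiating wFAPLs (58.7 CPM), followed by wFAPLs (17.7 CPM). Mural markers of the differentiating wFAPLs are given below. Bmp4 was at 4.25 CPM in wAPC 1, 3.61 CPM in wAPC 2, 1.86 CPM in wCAPs and 0.922 CPM in wAPC 3. No UMI was found in the 62 cells of wAPC 4, which, read as up to 3 counts, allows a level of up to 1.77 CPM and a UMI in up to 4.84% of cells, and sets no limit on the cells that express the gene. In BAT the order was bFAPLs (43.6 CPM), bCAPs (21.0 CPM), bAPC 5 (20.1 CPM), bAPC 4 (6.01 CPM), bAPC 3 (3.88 CPM), bAPC 2 (2.89 CPM) and bAPC 1 (1.02 CPM). The intervals of bCAPs, bAPC 5 and wFAPLs overlapped in turn, and those of bFAPLs and bCAPs did not.

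Over all labelled cells of a depot, Bmp4 was lower in committed than in fibro-adipogenic cells. It gave a log2 ratio of -3.25 (-3.83 to -2.71) for wCAPs over wFAPLs and -1.06 (-1.33 to -0.79) for bCAPs over bFAPLs. The brown ratio was -0.97 in thinned cells, under 2-fold, and 0.0879 in male cells, where its direction turned. Between depots the log2 ratio was 1.30 (1.00 to 1.61) for bFAPLs over wFAPLs, a size that depends on the background of wFAPLs given below. bCAPs were at 21.0 CPM and wCAPs at 1.86 CPM. The level in wCAPs could not be told from background, so no size is read from a ratio against it. Few cells held these UMIs. The 36 in wCAPs came from 16 of 674 cells, 16 of them from a single cell, and the 28 in differentiating wFAPLs came from 6 cells. With names carried over to all filtered cells, the level in differentiating wFAPLs was 35.4 CPM.

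At a common depth of 10000 UMIs per cell, a Bmp4 UMI was seen in 20.4% of bFAPLs, 14.2% of bCAPs, 12.2% of bAPC 5 and 8.98% of wFAPLs. At full depth these shares were 33.0%, 22.6%, 20.0% and 14.5%. Cells that are not of the fat lineage served as background. At the common depth the share was 0% in 20 white and 22 brown glial cells and in 14 white myeloid cells, and 3.70% in 27 brown myeloid cells. Median depths there were 22607, 17174.5, 25124.5 and 29269 UMIs in that order, against 25194 in bFAPLs and 26730.5 in wFAPLs. The brown myeloid share is that of 1 cell of 27, which sets no firm limit. The count of 0 in the 22 brown glial cells, read as up to 3 counts, allows a background share above that of bAPC 5. The shares of bAPC 1 (1.20%), bAPC 2 (2.17%), bAPC 3 (4.09%), bAPC 4 (3.52%) and bAPC 5 could thus not be told from background by these cells alone. The share of bCAPs lay little above that bound. In WAT the counts of 0 allow a background share of up to 15.0% (glial cells) and 21.4% (myeloid cells), so the shares of wAPC 1 (3.68%), wAPC 2 (4.62%), wAPC 3 (1.11%), wAPC 4 (0%), wCAPs (1.19%) and wFAPLs could not be told from background by these cells alone. The Bmp4 level of wFAPLs (14.8 to 21.1 CPM) did lie above that of wAPC 1 (3.25 to 5.45 CPM), the next white cluster, without overlap of intervals.

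The 8 mural marker genes summed to 27566 CPM in differentiating wFAPLs, against 2404 to 5829 CPM in the other 13 clusters, and none of the 8 was at 0 there. In FAPLs and CAPs the sums were 4450 and 2404 CPM in WAT and 5777 and 4280 CPM in BAT. Most of each sum was Acta2, at 4155 CPM in wFAPLs and 5500 CPM in bFAPLs. Clusters with little Bmp4 had sums as high, with 5113 CPM in wAPC 1, 5754 CPM in bAPC 2 and 5829 CPM in bAPC 4. Myh11, 1 of the 8, was at 2522 CPM in differentiating wFAPLs, 102 CPM in wFAPLs and 48.4 CPM in bFAPLs. In every other cluster it was at most 26.4 CPM (bAPC 4), with 13.0 CPM in bCAPs. Of the 8, 7 reached 50 CPM in differentiating wFAPLs, 3 in wFAPLs and 2 in bFAPLs, against 1 in each other cluster. The part of mural-like expression in the Bmp4 values was not tested. The 6 endothelial markers summed to at most 19.1 CPM in any cluster, and all 6 were at 0 in differentiating wFAPLs. The precursor marker Pdgfra was at 6.29 CPM (3 UMIs) in differentiating wFAPLs and 82.7 CPM in wFAPLs.

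Gdf10 (chromosome 14, 33923587 to 33937983, plus strand), also called BMP3B, codes for a divergent ligand of the same superfamily. Its level was 37.9 CPM in WAT (36.4 to 39.6) and 7.46 CPM in BAT (6.77 to 8.20). The log2 ratio was -2.35 (-2.50 to -2.20), or 5.09-fold less in BAT, a size limited by the brown background given below. wFAPLs had the highest level at 93.6 CPM, followed by wAPC 3 (45.8 CPM), wCAPs (40.0 CPM) and wAPC 2 (29.4 CPM). wAPC 1 had 13.5 CPM and wAPC 4 5.30 CPM. All brown clusters but bFAPLs (24.5 CPM) lay between 0.929 CPM (bAPC 5, 3 UMIs) and 6.22 CPM (bAPC 1). The intervals of wAPC 3 and wCAPs overlapped, and the interval of wFAPLs overlapped no other.

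Like Bmp4, Gdf10 was lower in CAPs than in FAPLs of the same depot. The log2 ratio was -1.23 (-1.38 to -1.08) for wCAPs over wFAPLs and -2.52 (-3.09 to -2.00) for bCAPs over bFAPLs. Unlike Bmp4, it was lower in brown than in white cells of both kinds, with log2 ratios of -3.23 (-3.76 to -2.74) for CAPs and -1.93 (-2.17 to -1.69) for FAPLs. The 15 differentiating wFAPLs, highest for Bmp4, held 2 Gdf10 UMIs in 1 cell. In wFAPLs 44.9% of cells had a Gdf10 UMI at the common depth, in bFAPLs 16.1% and in bCAPs 4.39%, against 5.00% in white and 0% in brown glial cells. The count of 0 in the 22 brown glial cells, read as up to 3 counts, allows a background share above that of bCAPs. No size is therefore read from ratios against the Gdf10 level of bCAPs. The BAT level as a whole rests in part on bCAPs and on bAPC clusters of low level, so the size of the depot ratio is not firm either.

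**Figure D2:**
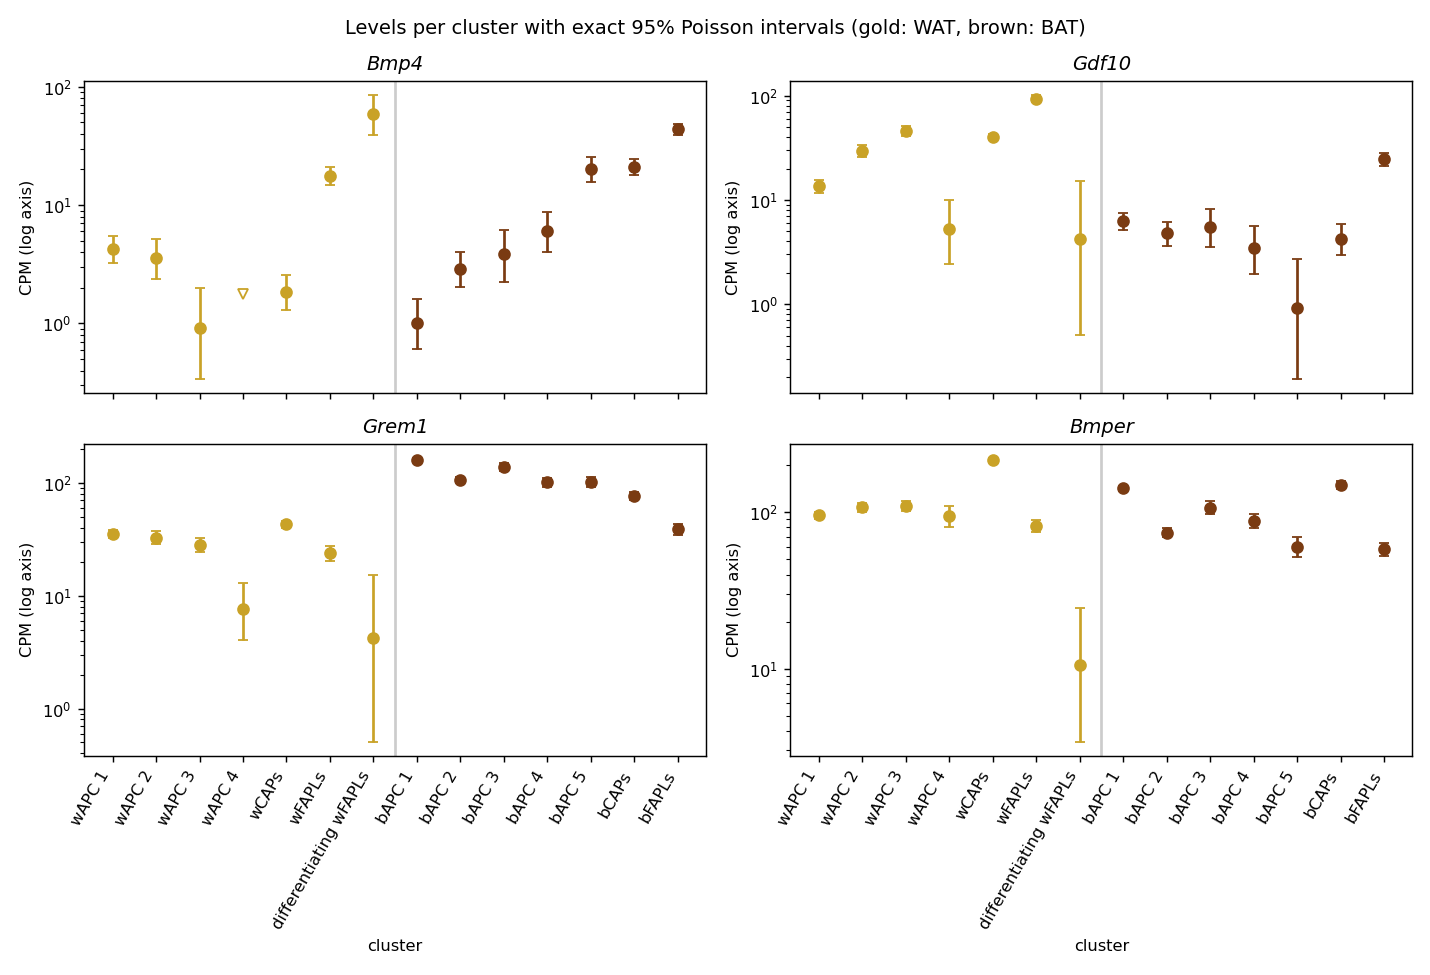
Level of Bmp4, Gdf10, Grem1 and Bmper (CPM, log axis) in each of the 14 precursor clusters, WAT in gold and BAT in brown. Bars are exact 95% Poisson intervals and the open triangle marks a cluster with no UMI at the level that 3 UMIs would give; the highest points are differentiating wFAPLs for Bmp4, wFAPLs for Gdf10, bAPC 1 for Grem1 and wCAPs for Bmper.

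Bmp2 (chromosome 2, 133552159 to 133562885, plus strand) and Bmp7 (chromosome 2, 172868012 to 172940321, minus strand) were barely detected. Bmp2 gave 35 UMIs in WAT (0.610 CPM) and 62 in BAT (1.07 CPM), a log2 ratio of 0.81 (0.19 to 1.46). In the 13 clusters of at least 50 cells it was at most 2.39 CPM (bFAPLs). Differentiating wFAPLs held 8 Bmp2 UMIs in 3 cells, or 16.8 CPM (7.24 to 33.1). Bmp7 gave 2 UMIs in each library, so no difference in it was detectable at this depth.

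Bmpr1a (chromosome 14, 34410734 to 34503341, minus strand), which codes for the broadly expressed type I receptor ALK3, was at 117 CPM in WAT and 99.3 CPM in BAT. The log2 ratio was -0.24 (-0.29 to -0.19). Over the 13 clusters of at least 50 cells it ran from 69.3 CPM in bAPC 2 to 139 CPM in wAPC 2, a 2.00-fold range. At 119 CPM in wCAPs and 120 CPM in wFAPLs it did not differ beyond counting error, with a log2 ratio of -0.01 (-0.12 to 0.10). In BAT the ratio was -0.10 (-0.24 to 0.04), with 103 CPM in bCAPs and 111 CPM in bFAPLs. In other cells Bmpr1a was at 156 CPM (white) and 144 CPM (brown) in glial cells and at 46.4 and 32.6 CPM in myeloid cells.

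Bmpr2 (chromosome 1, 59763400 to 59879014, plus strand), the type II receptor, followed the same pattern at 112 CPM in WAT and 94.8 CPM in BAT, a log2 ratio of -0.24 (-0.29 to -0.19). Its range was 65.2 CPM in bAPC 2 to 127 CPM in wAPC 4, or 1.94-fold. In wCAPs it was at 121 CPM and in wFAPLs at 100.4 CPM, a log2 ratio of 0.27 (0.15 to 0.40). The ratio in BAT was 0.07 (-0.07 to 0.22). Across the 13 clusters the log2(CPM + 1) values of Bmpr1a and Bmpr2 had a Pearson r of 0.91, which was 0.67 over the 6 white clusters and 0.93 over the 7 brown ones. These clusters come from 2 libraries and are not independent samples.

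bAPC 2 stood apart for both genes, with log2 ratios over the other brown cells of -0.63 (Bmpr1a) and -0.66 (Bmpr2). In that cluster long genes were lower as a whole. The median log2 ratio over the other brown cells was -0.58 for genes of more than 79108 bases and 0.18 for genes of up to 9450 bases, among 3621 genes of at least 50 CPM. The nuclear RNA Malat1 was at 3610 CPM there and 7592 CPM in the rest. The 3 receptor genes are 92608 (Bmpr1a), 115615 (Bmpr2) and 332290 bases long (Bmpr1b), and the counts include intronic reads under the default setting of the counting software. Its part in the receptor values was not tested. Without bAPC 2, the ratio of BAT over WAT was -0.13 for both Bmpr1a and Bmpr2.

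Bmpr1b (chromosome 3, 141837136 to 142169425, minus strand) codes for ALK6, a type I receptor of narrower expression, and it was the receptor that varied most. It was at 115 CPM in WAT and 66.7 CPM in BAT, a log2 ratio of -0.78 (-0.84 to -0.73). The range over the 13 clusters was 5.53-fold, from 34.5 CPM in bCAPs to 191 CPM in wAPC 2. bAPC 4 (151 CPM), wAPC 1 (133 CPM) and bAPC 5 (120 CPM) came next, and the intervals of bAPC 4 and wAPC 1 did not overlap. Committed cells had less of it than fibro-adipogenic cells in both depots, by less than 2-fold. The log2 ratio was -0.33 (-0.45 to -0.21) in WAT and -0.91 (-1.12 to -0.69) in BAT. bCAPs had 2.63-fold less than wCAPs, a log2 ratio of -1.40 (-1.58 to -1.22). Glial and myeloid cells held 3 Bmpr1b UMIs in all, with at most 2.61 CPM in any of these types.

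Cells with both receptor types were counted at 10000 UMIs per cell. A UMI of Bmpr1a or Bmpr1b together with 1 of Bmpr2 was seen in 28.0% of bAPC 2 and 35.1% of bAPC 3, and in 43.6% (bCAPs) to 61.3% (wAPC 4) of cells in the other 12 clusters. Myeloid cells gave 21.4% in WAT and 18.5% in BAT, and glial cells 45.0% and 31.8%. Both type I receptors were seen together most often in wAPC 2 (46.9%) and least often in bAPC 2 (12.5%).

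Grem1 (chromosome 2, 113746164 to 113758646, minus strand) codes for the secreted BMP antagonist gremlin 1. It was at 34.3 CPM in WAT (32.8 to 35.8) and 112 CPM in BAT (109 to 115), a log2 ratio of 1.71 (1.63 to 1.78) or 3.27-fold more in BAT. The brown bAPC 1 (161 CPM), bAPC 3 (139 CPM), bAPC 2 (106 CPM), bAPC 5 (103 CPM) and bAPC 4 (101 CPM) all lay above bCAPs (76.6 CPM) and bFAPLs (38.7 CPM). In WAT the highest level was 42.9 CPM in wCAPs, followed by 35.4 CPM in wAPC 1, 32.9 CPM in wAPC 2, 28.1 CPM in wAPC 3 and 24.0 CPM in wFAPLs. wAPC 4 had 7.66 CPM among labelled cells and 28.4 CPM with names carried over to all filtered cells. Every bAPC cluster was above every white cluster, without overlap of intervals.

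Committed cells had more Grem1 than fibro-adipogenic cells, by just under 2-fold. Their log2 ratio was 0.84 (0.60 to 1.08) for wCAPs over wFAPLs and 0.98 (0.78 to 1.19) for bCAPs over bFAPLs. With names carried over, the white ratio was 0.20. The CAPs and FAPLs differed less between depots than the whole libraries did, with log2 ratios of 0.84 (0.68 to 0.99) and 0.69 (0.41 to 0.97). Grem1 was spread unevenly over cells. In WAT 10% of cells held 75.6% of its UMIs and the highest cell had 38, and in BAT these values were 52.0% and 77. The ratio of variance to mean of its UMIs per cell was 7.66 in WAT and 10.5 in BAT, against a median of 1.39 and 1.40 over all genes of 20 to 200 CPM. Bmpr1b (7.24 and 5.14), Bmper (6.83 and 8.10) and Bmp4 (6.13 and 5.33) were also uneven in WAT and BAT. For Bmpr1a the ratio was 1.68 and 1.78. At the common depth a Grem1 UMI was seen in 16.2% of white and 40.7% of brown precursor cells, against 13.6% of brown glial cells and 7.14% of white myeloid cells, the latter being 1 cell with 11 UMIs at full depth, and 0% of white glial and brown myeloid cells. The shares of wFAPLs (11.3%) and wAPC 4 (6.45%) lay under the brown glial value.

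Bmper (chromosome 9, 23223076 to 23485200, plus strand) codes for a secreted protein that binds BMPs and modulates their activity. It was at 137 CPM in WAT and 107 CPM in BAT, a log2 ratio of -0.37 (-0.41 to -0.32). Committed cells had the highest levels of both depots, with 217 CPM in wCAPs and 150 CPM in bCAPs, followed by bAPC 1 at 142 CPM. The intervals of bCAPs and bAPC 1 overlapped, and that of wCAPs overlapped no other. The log2 ratio of CAPs over FAPLs was 1.40 (1.28 to 1.53) in WAT and 1.37 (1.21 to 1.53) in BAT. FAPLs had 81.9 CPM in WAT and 58.1 CPM in BAT, and differentiating wFAPLs 10.5 CPM (5 UMIs). Bmper is 262125 bases long. Long genes here are those above 80354 (bCAPs) to 88221.5 bases (wAPC 2), at 50 CPM or more. Their median log2 ratio over the depot's other cells was 0.13 in wCAPs, 0.11 in bCAPs and 0.25 in bAPC 1. It was -0.37 in differentiating wFAPLs. In wAPC 2 (0.14) and bAPC 4 (0.15) it was also raised, but Bmper was lower there (-0.40 and -0.30). The part of gene length in the Bmper values was not tested. Grem1 and Bmper were seen together at the common depth in 27.4% of bAPC 1, against 7.14% of white myeloid and 4.55% of brown glial cells, each 1 cell. The shares of wFAPLs (4.30%) and bFAPLs (5.38%) were not told from these.

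**Figure D3:**
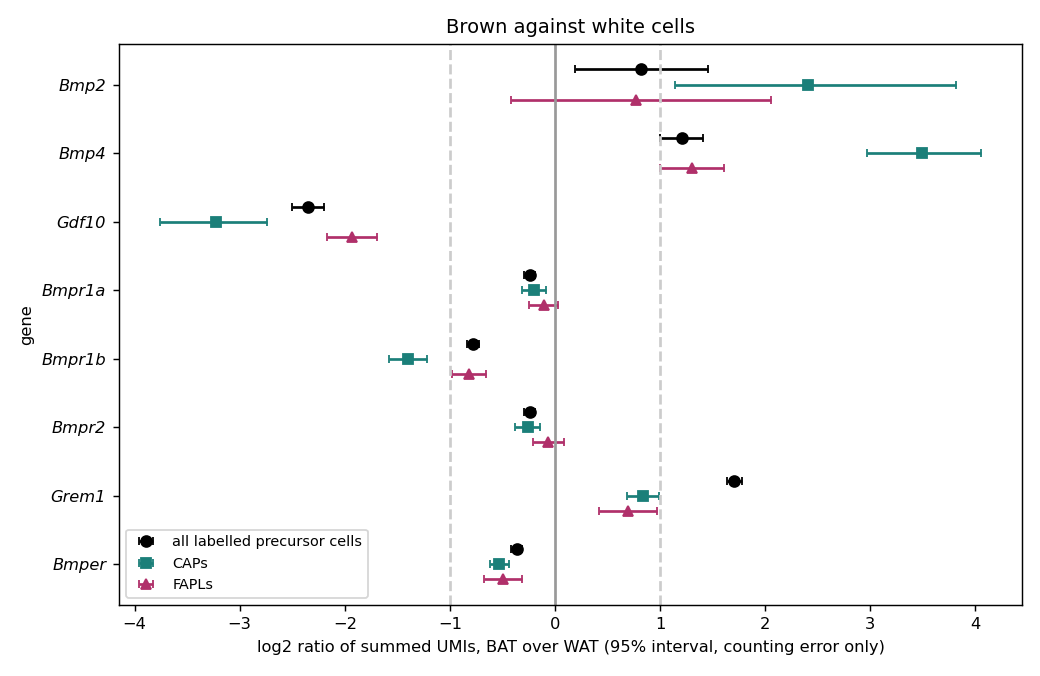
Log2 ratio of summed UMIs, BAT over WAT, of 8 genes for all labelled precursor cells (black circles), CAPs (green squares) and FAPLs (pink triangles), with 95% intervals for counting error. Gdf10 is lower and Bmp4 higher in BAT in all 3, the dashed lines mark 2-fold, and the CAP ratios of these 2 genes rest on a level near background in wCAPs (Bmp4) or bCAPs (Gdf10).

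Taking the genes by role, both ligands of at least 5 CPM were 2-fold or more lower in CAPs than in FAPLs of both depots, of which Bmp4 in BAT fell short of 2-fold in thinned cells (-0.97) and turned its direction in male cells (0.0879). All 3 receptors differed by less than 2-fold, and both binding proteins were higher in CAPs, of which Bmper passed 2-fold. This gave 1 gene higher and 2 lower of 7 in each depot. The Bmp4 call in WAT and the Gdf10 call in BAT rest on a CAP level near background. No size is read from them. The white Grem1 ratio was 0.20 with names carried over, and the Grem1 share of wFAPLs lay under that of brown glial cells. The size for Grem1 in WAT is therefore not firm either. Among all genes 1.99% were higher and 2.76% lower in WAT (4.75% in either direction), and 2.58% higher and 2.29% lower in BAT (4.88%). Other extracellular antagonists and modulators of the pathway did not share the direction of the 2 binding proteins as a group, and in BAT they went both ways. In WAT 0 of 11 measured were higher and 3 lower, with a median log2 ratio of -0.36. In BAT 1 of 12 was higher and 2 lower, with a median of -0.09. The median over the 7 genes was -0.01 in WAT and -0.10 in BAT, against 0.01 and 0.04 over all genes. Between depots, 3 of 7 passed 2-fold in CAPs (Bmp4 higher, Gdf10 and Bmpr1b lower) and 2 of 7 in FAPLs (Bmp4 higher, Gdf10 lower). The CAP calls of Bmp4 and Gdf10 rest on the same levels near background, which leaves Bmpr1b as the CAP call with a size. The share of all genes past 2-fold was 5.27% in CAPs, with 2.65% higher and 2.62% lower, and 2.48% in FAPLs, with 0.971% higher and 1.51% lower.

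**Figure D4:**
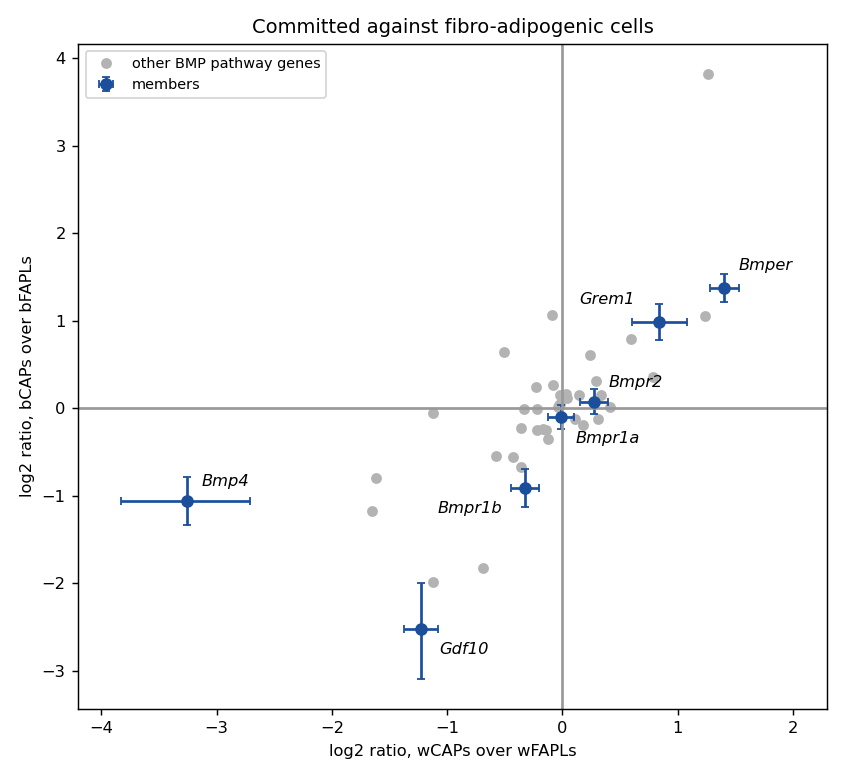
Log2 ratio of CAPs over FAPLs in WAT (x axis) against BAT (y axis), with the 7 measured genes in blue with 95% intervals and other BMP pathway genes in grey. Bmp4 and Gdf10 lie at the lower left, Grem1 and Bmper at the upper right, Bmpr1a and Bmpr2 near 0 and Bmpr1b below 0 in both depots, further so in BAT.

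Female and male pups were pooled, and cells could be told apart by their own Xist and Y-linked UMIs. There were 1539 female and 397 male cells in WAT and 1655 and 272 in BAT. Bmp4 was at 4.73 CPM in female and 4.44 CPM in male white cells and at 11.6 and 10.2 CPM in brown ones. Gdf10 was at 37.5 and 41.6 CPM in WAT and 7.57 and 7.61 CPM in BAT. The depot differences of both genes were thus seen in cells of either sex. Grem1 was lower in male than in female cells of WAT, at 25.1 against 36.7 CPM, and higher in BAT, at 138 against 109 CPM. The BAT over WAT log2 ratio of Grem1 was 1.58 in female and 2.46 in male cells.

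In bCAPs, Grem1 was at 62.2 CPM in 229 female and 167 CPM in 50 male cells, where 1 cell held 77 of the 219 UMIs, and in bFAPLs at 42.5 CPM in 223 female and 23.0 CPM in 47 male cells. bCAPs exceeded bFAPLs by 0.55 (log2) in female and 2.86 in male cells. Bmp4 in bFAPLs was at 47.1 CPM in female and 17.2 CPM in male cells, and bCAPs against bFAPLs gave a log2 ratio of -1.10 in female and 0.0879 in male cells. The lower Bmp4 of bCAPs was seen in female cells and not in the few male ones, which held 24 (bCAPs) and 21 (bFAPLs) UMIs of it, and the difference between sexes was not tested. Cells of 1 library are not replicates, the number of pups behind each sex is unknown here, and sex and pup cannot be told apart.

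**Figure D5:**
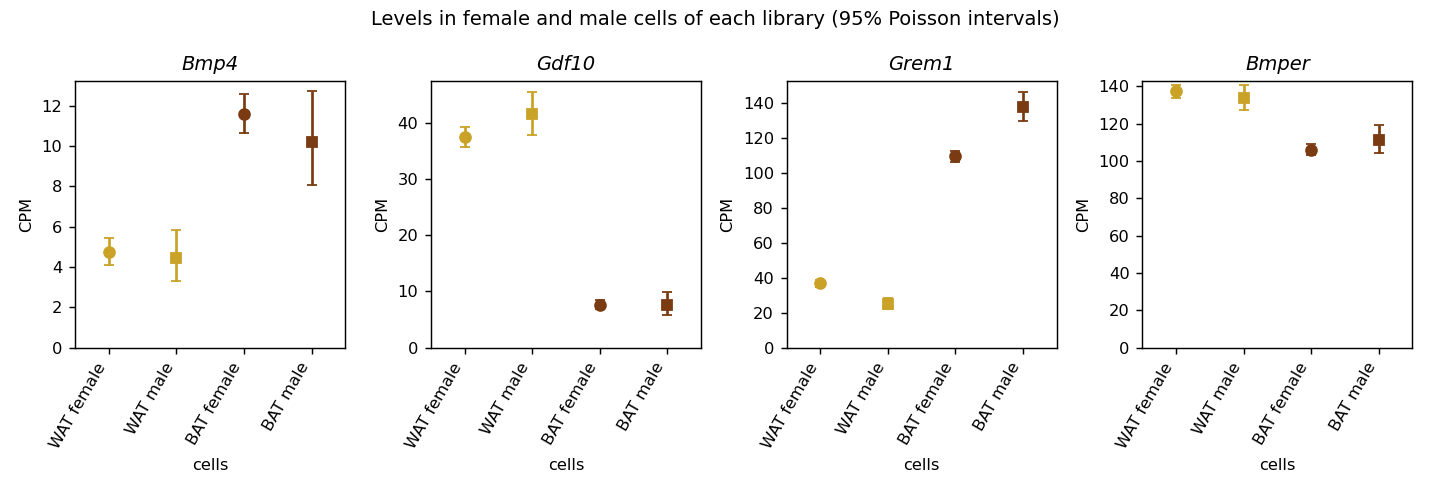
Level (CPM) of Bmp4, Gdf10, Grem1 and Bmper in female (circles) and male (squares) precursor cells of WAT (gold) and BAT (brown), with 95% Poisson intervals. Female and male cells of a depot lie close together for Bmp4, Gdf10 and Bmper, and the depots lie further apart for Grem1 in male than in female cells.

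Of 66 other genes of the pathway, grouped by role, 39 reached 5 CPM in 1 of the depots, and 2 were higher and 0 lower in BAT by 2-fold or more, against 0.999% higher and 1.16% lower of all 10606 genes. The ligand Bmp5 was at 1.95 CPM in WAT and 9.09 CPM in BAT, a log2 ratio of 2.22 (1.92 to 2.53). The white level rests on 112 UMIs and no background is given for Bmp5, so this size is not firm. The co-receptor Eng (endoglin) was at 15.9 CPM in WAT and 33.9 CPM in BAT, a log2 ratio of 1.09 (0.97 to 1.20). All 11 measured signal carriers and inhibitors, among them the SMADs, differed by less than 2-fold in this comparison and between CAPs and FAPLs of both depots. The 7 measured target genes had a median log2 ratio of 0.46, against -0.04 over all genes. They ran from -0.32 to 0.70, none past 2-fold. Id1 was at 78.1 CPM in WAT and 124 CPM in BAT, and Id3 at 410 and 564 CPM.

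In wCAPs over wFAPLs, 38 of the 66 were measured, with 2 higher and 5 lower by 2-fold or more, against 1.99% and 2.76% of all 10793 genes. Bmp3, the ligand closest to Gdf10, was at 0.670 CPM in wCAPs and 15.9 CPM in wFAPLs, a log2 ratio of -4.57 (-5.52 to -3.74). The wCAPs level rests on 13 UMIs, and no Bmp3 level in cells that are not of the fat lineage is given here as background. No size is therefore read from the Bmp3 ratio. The target gene Id4 (-1.65), the BMP-binding membrane protein gene Crim1 (-1.62), the antagonist gene Fstl3 (-1.12) and the protease gene Tll1 (-1.12) were also lower. Dlx5 (1.27), a homeobox gene downstream of BMPs, and the co-receptor gene Tgfbr3 (1.24) were higher. The wFAPLs level of Dlx5 rests on 18 UMIs, so its size is not firm.

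In bCAPs over bFAPLs, 40 were measured, with 3 higher and 4 lower, against 2.58% and 2.29% of all 10763 genes. Dlx5 was at 5.61 CPM in bCAPs and 0.398 CPM (3 UMIs) in bFAPLs, a log2 ratio of 3.82 (2.18 to 6.15). These 3 UMIs are as many as a count of 0 was taken to allow, so no size is read from this ratio. The antagonist gene Fst (1.06) and Tgfbr3 (1.05) were the other 2 higher genes. Msx1 (-2.10), Fstl3 (-1.99) and Id4 (-1.17) were among the lower genes. The bCAPs levels of Msx1 (16 UMIs) and Fstl3 (23 UMIs) were low and no background is given for them, so their sizes are not firm.

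The genes most like each member were found by Pearson correlation of log2(CPM + 1) over the 13 clusters of at least 50 cells, among 7815 genes that reached 20 CPM. For Bmp4 these were Pdlim2 (0.91), Pdlim3 (0.90) and Slc39a13 (0.89). For Gdf10 they were Ly6a (0.91), Orc4 (0.89) and Trappc13 (0.88). Grem1 was most like Id1 (0.88), En1 (0.88) and Mphosph8 (0.88), and Bmper most like Gm1976 (0.88), Gm42047 (0.86) and Rhobtb1 (0.86). Among the receptors, Bmpr1a was most like Btbd7 (0.96), Golga4 (0.96) and Kdm4c (0.96), Bmpr1b most like Galnt17 (0.96), Snx30 (0.92) and Dennd4a (0.91), and Bmpr2 most like Nt5c2 (0.99), Atp9b (0.98) and Gsk3b (0.96). These values describe 13 points from 2 libraries that also share depot and depth.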

How the data were processed

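Single-cell RNA was measured in 1 WAT and 1 BAT library (10x 3′ v3.1 chemistry). The deposited values are raw UMI counts per gene and cell, which the authors made with Cell Ranger 7.0.1 at default parameters against mm10. They are not normalized. Cluster names came from a shortened copy of the study's source data, which pairs 1999 cells per depot with a precursor cluster. Names of the other precursor cells, more than are named here, were not used here. No authors' fold change or p-value was used. Members and lists were chosen with earlier results of these data known. Groups were depots and named clusters, as the labels and the study give them. The named genes are the 9 members, the other pathway genes past 2-fold (at most 6 per comparison, and all 7 for wCAPs over wFAPLs, where Tll1 was added after its value was seen, as was Tgfbr3 for bCAPs over bFAPLs), and the 3 genes most like each member. A counted pathway gene past 2-fold is not reported here by name.

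Cells were kept with 3900 to 7700 genes, 1.7 to 5% mitochondrial UMIs and 6000 to 60000 UMIs, counting genes found in at least 3 cells. UMIs were summed per group and scaled to CPM with exact 95% Poisson intervals, ratios had exact conditional binomial intervals and shares Clopper-Pearson ones. These cover counting error only, and UMIs that cluster in few cells make them too narrow for spread between cells. With 1 library per depot no test was run. A difference of 2-fold or more was counted among genes of at least 5 CPM in either group. A count of 0 was read as up to 3 counts. Doublets were not called. Names were carried over by vote of 15 neighbours on 10 components, which returned the name of 88.5% of held-out white and 83.4% of brown cells. Alternatives were carried-over names, thinned cells, G1 cells, female and male cells, means over cells, other scalings, minimums and folds, all filtered or captured cells, clusters weighted equally and, added after the data were seen, leaving out bAPC 2 or the differentiating wFAPLs. Python 3.11.15, numpy 2.4.6, scipy 1.17.1, pandas 2.3.3, scikit-learn 1.9.0, scanpy 1.11.5 and Seurat 5.3.0 (cell cycle genes) were used. The ratios and intervals were checked on summed counts simulated with Poisson error. That check does not cover spread between cells, thinning, carried-over names or sex calls. Gene positions are from GENCODE M21 on GRCm38, and promoters from RefSeq (GRCm38.p6), which had 7 of the 9 members. Bmp4 overlaps antisense genes, whose reads the stranded 3′ assay counts apart.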

Additional observations from a re-analysis of the deposited data

Results flagged for a closer look

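For 3 other pathway genes the log2 ratio of CAPs over FAPLs had opposite signs in WAT and BAT, with intervals for counting error on either side of 0. Chrdl1, which codes for a chordin-like BMP antagonist, was at -0.51 (-0.75 to -0.26) in WAT and 0.64 (0.27 to 1.02) in BAT. Smad1, a carrier of the BMP signal, was at -0.23 (-0.39 to -0.07) and 0.24 (0.04 to 0.45). Smad4, the partner of all such carriers, was at 0.18 (0.05 to 0.32) and -0.19 (-0.35 to -0.04). All 3 lay between the 5th and 95th percentiles of all genes, which were -0.63 and 0.59 in WAT and -0.61 and 0.71 in BAT. None reached 2-fold in either depot, each rests on 1 library per depot, and the difference between depots was not tested.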

How the results depend on the processing

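No paired analysis was possible because each depot has 1 library, and for the same reason no replicate could be left out. The scalings moved the median of all genes by at most 0.03 on the log2 scale. The count of 3 members past 2-fold between depots held under all alternatives but the minimum of 20 CPM (2) and the 1.5-fold limit (4). For wCAPs over wFAPLs it was 2 to 4. For bCAPs over bFAPLs it was 2 to 4 and became 5 at 1.5-fold, because Bmpr1b and Grem1 joined. Thinning took Bmp4 there to -0.97, under 2-fold, and male cells to 0.0879, the only reversal among 196 values of single members (150 of which moved by less than counting error). Grem1 there ran from 0.55 to 2.86. The median log2 ratio of members between depots was -0.14 in male cells, -0.30 at 20 CPM and -0.13 without bAPC 2. For wCAPs over wFAPLs it was -0.20 thinned, -0.18 in G1, -0.17 with no minimum and 0.13 at 20 CPM. For bCAPs over bFAPLs it was 0.0879 in male cells. The cause of these moves was not tested, beyond the fewer genes or cells that each setting leaves. Depth limits Bmp2 and Bmp7 most, and Bmp4 in single cells.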
